A study of Mus musculus with 16 samples.

Results

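A set of 10 genes that mark committed precursors and newly formed oligodendrocytes was described in oligodendrocytes of young mice whose mothers had drunk bisphenol A (BPA). They are Bcas1, Fyn, Tcf7l2, Gpr17, Enpp6, Itpr2, Tmem163, Ust, Bmp4 and Neu4. They were chosen by name, as known markers of these stages, but with earlier results of these data known. Their contrasts with all genes are therefore descriptions and no test of the set. They are 10 of 32207 genes in the deposited table, and all 10 had a row and passed the filter on low counts. RNA-seq libraries, 16 in all, came from OF-1 mice, an outbred strain, at postnatal day 16. They were made after magnetic sorting of dissociated brain cells for the O4 antigen. There were 4 libraries of each of 4 groups: male controls, female controls, BPA males and BPA females. The design text counts 9 control and 10 BPA-exposed mice in the study, against 8 libraries of each exposure. The titles number replicates, and whether each library came from a single mouse was not settled. Names such as BPA male stand for libraries. BPA, a building block of polycarbonate plastics, reached the pups through their mothers from gestational day 7 through lactation, at a labelled exposure of 40 µg/kg/day, and the labels name no transgene or deletion in any group. The labels do not say which pups were littermates, so p-values reflect only how much these libraries vary and could be too small for an exposure that a litter shares. Total counts ran from 23603816 to 42575326 per library, and the member with the fewest counts in any library had 1378.

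Oligodendrocyte precursors leave the cell cycle, pass through a committed state and become newly formed oligodendrocytes before they wrap axons with myelin. Many of the genes of that passage are switched on only briefly, and several act as timers or brakes on the way to myelination. The O4 antigen appears on late precursors and stays on later stages, so an O4 sort gathers precursors, committed cells and myelinating cells together.

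The sequences shown are promoters of some of the genes whose male libraries did not overlap between BPA and control (Fyn, Tcf7l2, Tmem163 and Ust). Itpr2, whose male libraries did, is shown for contrast. The Bmp4 libraries did not overlap in males either, and its window was searched but is not shown. They come from RefSeq on build GRCm38.p6 and run from 250 bases before to 50 bases after a gene's start. Windows of 8 of the 10 genes were searched, 9 windows in all because Tcf7l2 has an upstream and an internal start. No window of Bcas1 or Gpr17 was searched, so the counts out of 9 leave these genes out. Capitals mark matches on either strand to 5 of the 8 motifs searched. The TCF/LEF site was searched as ATCAAAG. The core that SOX factors bind was searched as ACAAAG. The TATA box was searched as TATAAA. The CCAAT box was searched by those letters, and the GC box as GGGCGG.
Fyn (chr10:39369549-39369848, plus strand): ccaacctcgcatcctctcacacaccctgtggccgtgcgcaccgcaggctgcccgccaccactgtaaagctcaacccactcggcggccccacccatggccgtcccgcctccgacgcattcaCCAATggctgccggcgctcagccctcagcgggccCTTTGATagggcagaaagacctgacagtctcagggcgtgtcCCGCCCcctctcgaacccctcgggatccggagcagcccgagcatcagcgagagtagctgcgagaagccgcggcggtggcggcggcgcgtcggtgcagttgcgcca
Tcf7l2, upstream start (chr19:55741560-55741859, plus strand): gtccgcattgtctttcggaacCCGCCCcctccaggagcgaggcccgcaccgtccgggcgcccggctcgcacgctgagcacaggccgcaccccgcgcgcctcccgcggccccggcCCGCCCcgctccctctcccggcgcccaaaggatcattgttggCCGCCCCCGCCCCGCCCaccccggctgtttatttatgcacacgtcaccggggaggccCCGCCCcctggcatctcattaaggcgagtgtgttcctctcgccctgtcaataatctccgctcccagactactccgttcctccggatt
Tcf7l2, internal start (chr19:55895071-55895370, plus strand): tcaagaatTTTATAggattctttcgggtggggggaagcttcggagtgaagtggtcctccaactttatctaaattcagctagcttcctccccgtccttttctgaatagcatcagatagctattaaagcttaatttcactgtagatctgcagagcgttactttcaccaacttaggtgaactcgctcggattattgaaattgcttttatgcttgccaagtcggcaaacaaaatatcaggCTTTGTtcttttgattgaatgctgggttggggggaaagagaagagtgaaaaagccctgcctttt
Tmem163 (chr1:127677972-127678271, minus strand): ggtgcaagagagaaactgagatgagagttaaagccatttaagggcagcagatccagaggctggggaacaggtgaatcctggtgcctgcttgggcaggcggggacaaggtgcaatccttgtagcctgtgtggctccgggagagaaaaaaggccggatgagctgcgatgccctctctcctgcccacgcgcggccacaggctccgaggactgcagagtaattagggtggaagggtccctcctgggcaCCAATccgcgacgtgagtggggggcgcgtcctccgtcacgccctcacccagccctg
Ust (chr10:8518776-8519075, minus strand): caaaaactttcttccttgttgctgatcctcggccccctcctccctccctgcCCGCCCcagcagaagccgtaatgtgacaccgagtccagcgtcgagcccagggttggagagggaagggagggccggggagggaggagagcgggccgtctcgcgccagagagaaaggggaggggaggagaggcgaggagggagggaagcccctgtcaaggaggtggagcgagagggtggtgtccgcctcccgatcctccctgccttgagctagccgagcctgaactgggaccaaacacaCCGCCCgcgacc
Itpr2 (chr6:146502174-146502473, minus strand): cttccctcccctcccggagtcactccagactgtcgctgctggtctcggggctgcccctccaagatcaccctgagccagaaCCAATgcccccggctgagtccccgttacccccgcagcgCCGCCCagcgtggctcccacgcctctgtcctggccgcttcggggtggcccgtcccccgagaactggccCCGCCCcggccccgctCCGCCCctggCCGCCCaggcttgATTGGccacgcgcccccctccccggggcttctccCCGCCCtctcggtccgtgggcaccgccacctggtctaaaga
The Fyn window held the TCF/LEF letters, first base at position -96 from the start, as did 3.73% of all 32851 RefSeq promoter windows of this length. The internal Tcf7l2 window held the SOX core at -14, which 18.7% of all windows had, and TATA letters at -242. The GC box, present in 35.7% of all windows, was in 5 of the 9, with 6 matches at the upstream Tcf7l2 start and 5 in Itpr2. CCAAT letters stood in the Fyn, Itpr2 and Tmem163 windows, against 37.4% of all windows. The letters CAGCTG and CATATG (E-boxes) and AGGTCA (a nuclear receptor half-site) were in 0 of the 9 windows, against 16.3%, 3.91% and 16.3% of all windows. The Enpp6 and Neu4 windows held none of the 8 motifs, and the Bmp4 window held a GC box at -38. These matches describe letters only.

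The 10 genes spanned a wide range of levels in the 8 control libraries. On the authors' scale of normalized counts per kilobase of median transcript length, Bcas1 stood highest at 37526 ± 2007 (SD, n = 8) and Tcf7l2 lowest at 1238 ± 111. Enpp6 followed Bcas1 at 29932 ± 1473, and the lineage transcription factor gene Olig1 was at 32196 ± 1423 on the same scale. Gpr17 at 17833 ± 1589.6 and Fyn at 14368 ± 1264 came next, and their ranges over the control libraries overlapped. Tmem163 at 6408 ± 449 overlapped Itpr2 at 5059 ± 1385 in the same way. Bmp4 at 2986 ± 456, Ust at 2053 ± 201 and Neu4 at 1623 ± 385 completed the order, and each of them overlapped its next lower neighbour, Neu4 overlapping Tcf7l2. The ranges of Bcas1 over Enpp6 and Enpp6 over Gpr17, and those of Fyn over Tmem163 and of Itpr2 over Bmp4, did not overlap. For scale, the gene of myelin basic protein, Mbp, stood at 343133 ± 28124 and the precursor receptor gene Pdgfra at 3092 ± 847. Bcas1 was above 99.7% of the tested genes on this scale and Tcf7l2 above 76.8%, and all 10 markers had counts in all 16 libraries.

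**Figure D1:**
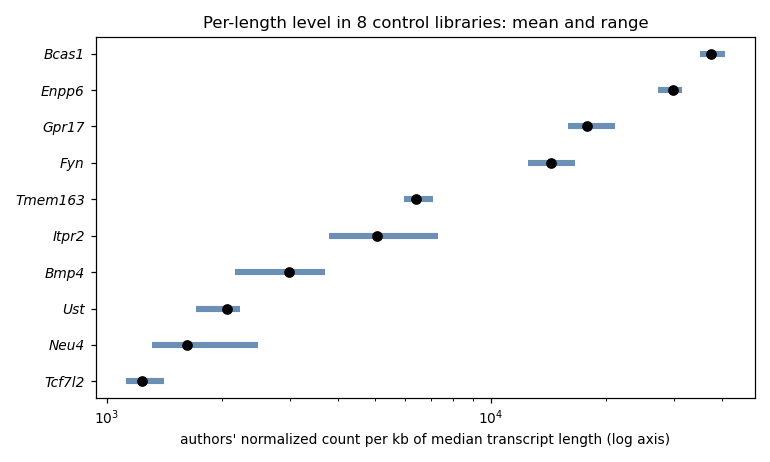
Level of the 10 genes in the 8 control libraries, as the authors' normalized count per kilobase of median transcript length on a log axis. Points are means and bars run from the lowest to the highest control library; Bcas1 is highest and Tcf7l2 lowest.

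In males, 9 of the 10 genes had lower fitted levels with BPA than in controls, and Itpr2 was the exception. The median log2 fold change of the 10 was -0.28, against 0.0088 over all 16339 genes tested, of which 47.5% were below 0. In 7 genes, Bcas1, Fyn, Tcf7l2, Gpr17, Tmem163, Ust and Bmp4, every BPA male was lower than every control male, against 2.83% of all genes tested. None of the 10 passed the threshold of 0.05 on the Benjamini-Hochberg adjusted p of limma-voom, which 0.00612% of all genes passed. At an unadjusted p under 0.05, 5 of the 10 were lower (Bcas1, Fyn, Tcf7l2, Tmem163 and Ust), against 4.8% of all genes lower at that level, and 0 were higher. In a bulk sort, fewer cells of a stage and less RNA per cell of that stage cannot be told apart.

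**Figure D2:**
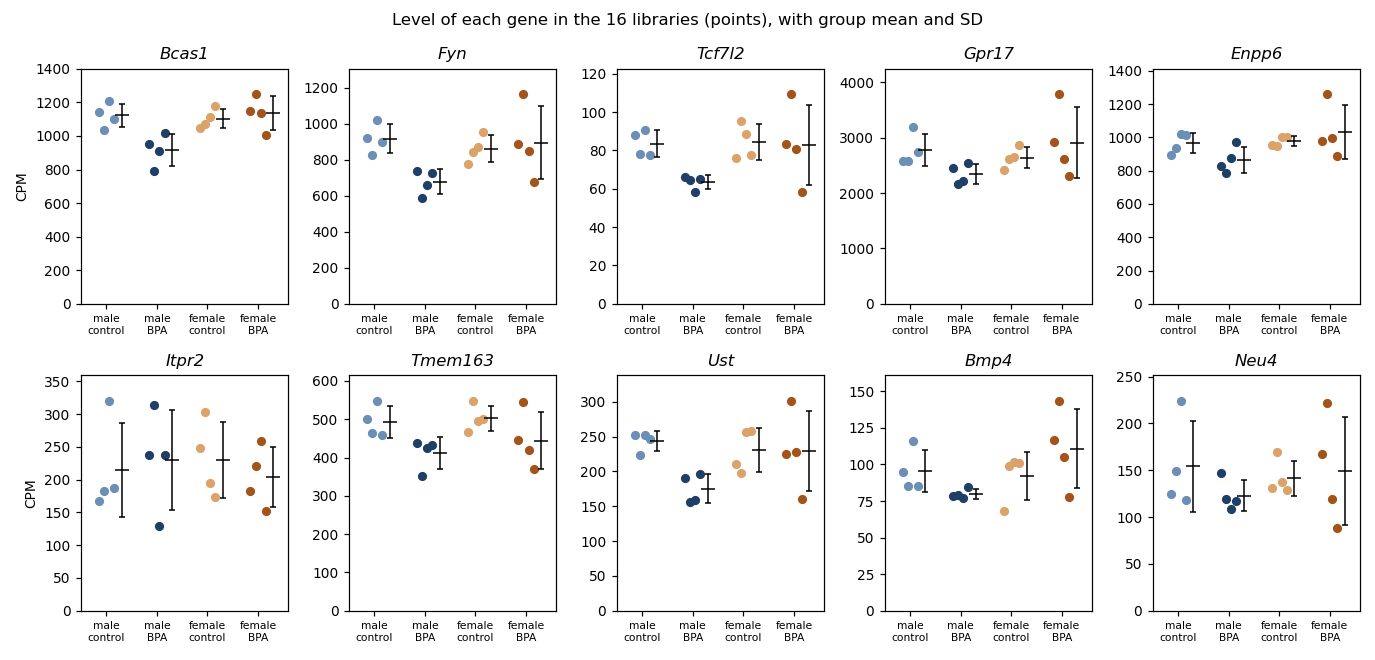
CPM, a gene's count over the scaled total of its library in units of 1e+06 counts, of each gene in the 16 libraries, 1 panel per gene with its axis starting at 0. Points are libraries, and black bars give the group mean and SD (n = 4); in 7 panels all 4 BPA males lie under all 4 control males, while the BPA females spread around their controls.

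Gpr17, a membrane receptor of committed precursors that delays their maturation, was lower in each of the 4 BPA males than in any control male (ENSMUSG00000052229). Its levels were 2582, 2586, 3193 and 2746 CPM in control males and 2449.8, 2162, 2217 and 2539.7 CPM in BPA males. The nearest libraries were 2539.7 and 2582 CPM. The log2 fold change in males was -0.24 ± 0.12 (SE), with a 95% interval of -0.51 to 0.019 and an unadjusted p of 0.0669 (limma-voom adjusted p = 0.662). Control females stood at 2412, 2608, 2661 and 2872 CPM and BPA females at 2916, 3795, 2615 and 2304 CPM. The female groups overlapped: BPA females 1 and 2 were above all controls, BPA female 3 among them and BPA female 4 below them. The female log2 fold change was 0.12 ± 0.12, with an adjusted p of 0.999 by limma-voom. Of 9 related receptors for nucleotides and cysteinyl leukotrienes, 7 could be tested, and in males 6 were higher and 1 lower with a median of 0.43. P2ry1, an ADP receptor, had a log2 fold change of 0.82 ± 0.38 (adjusted p = 0.625) and the leukotriene receptor gene Cysltr1 0.43 ± 0.26 (adjusted p = 0.744), both by limma-voom, and 0 of the 7 were called. The list holds receptors that microglia also express, and 1 of them is itself among the 15 microglial markers used here. All 15 markers had male fold changes above 0, none of them called, as given with the other cell types. The part of microglial RNA in the receptor values was not tested.

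Bmp4, a secreted ligand that turns precursors from the oligodendrocyte path and holds back their maturation, was counted at 95.4 ± 14.4 CPM in control males and 79.8 ± 3.35 CPM in BPA males (SD, n = 4 each; ENSMUSG00000021835). The male controls were at 94.9, 85.2, 116 and 85.5 CPM and the BPA males at 78.6, 79.2, 76.9 and 84.7 CPM. The BPA males were all lower, but the nearest libraries were 84.7 and 85.2 CPM. The male log2 fold change was -0.25 ± 0.16 with an unadjusted p of 0.153 (limma-voom adjusted p = 0.781), and it was -0.15 without control male 3, the highest library of the controls. Control females were at 67.9, 98.6, 101 and 101 CPM and BPA females at 117, 144, 105 and 78.1 CPM, and these groups overlapped. The female log2 fold change was 0.25 ± 0.16, the highest of the 10 (limma-voom adjusted p = 0.999). With single libraries left out it ran from 0.12 to 0.42. Of 20 other genes of the pathway (ligands, receptors, SMADs, Id targets and antagonists), 19 were tested, and in males 7 were lower and 12 higher, with a median of 0.22 and 0 called. Smad4, the shared partner of the receptor-activated SMADs, had a log2 fold change of -0.13 ± 0.051 (unadjusted p = 0.0184), and the receptor gene Bmpr2 -0.16 ± 0.075 (unadjusted p = 0.0471). Smad1 had a log2 fold change of 0.15 ± 0.11 in males and 0.28 ± 0.11 in females, and Bmp2, another ligand, 0.29 ± 0.18 and 0.24 ± 0.18.

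Fyn, a Src-family kinase through which axonal contact drives process outgrowth and local translation of myelin basic protein, had a lower level in each of the 4 BPA males than in any control male (ENSMUSG00000019843). Control males were at 918, 828, 1021 and 896 CPM and BPA males at 736, 588, 658 and 726 CPM. The male log2 fold change was -0.44 ± 0.13 (95% interval -0.71 to -0.16), or -26.1%, with an unadjusted p of 0.00441 and a limma-voom adjusted p of 0.426. The female controls stood at 774, 841, 872 and 954 CPM and BPA females at 884, 1165, 848 and 675 CPM. Here too BPA female 2 stood above and BPA female 4 below all female controls, and the log2 fold change was 0.028 ± 0.13. Of 15 other Src-family kinases and Fyn partners, 13 were tested, 7 lower and 6 higher in males, with a median of -0.0082 and 0 called. Yes1, a close relative of Fyn, had a log2 fold change of -0.22 ± 0.091 in males (unadjusted p = 0.0321, limma-voom adjusted p = 0.574). Mapt, the microtubule-binding protein tau that binds Fyn, had a log2 fold change of -0.16 ± 0.091. Csk, the kinase that switches Src-family members off, had a log2 fold change of -0.070 ± 0.053.

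Itpr2, an endoplasmic reticulum channel that releases calcium on binding inositol trisphosphate, was the only gene of the 10 with a male fold change above 0 (ENSMUSG00000030287). The male controls stood at 168, 183, 320.4 and 188 CPM and BPA males at 238, 314, 129 and 238 CPM. The groups overlapped across nearly their whole range, with BPA male 3 lowest and control male 3 highest. The male log2 fold change was 0.069 ± 0.27 (limma-voom adjusted p = 0.971), and it was -0.0998 without BPA male 2, -0.031 without control male 1, 0.28 without control male 3 and 0.33 without BPA male 3. In females the controls were at 248, 303, 195 and 174 CPM and BPA females at 183, 221, 259 and 153 CPM, also overlapping, with a log2 fold change of -0.18 ± 0.27. Astrocytes express Itpr2 as well. The summed level of 15 astrocyte markers was 10153 CPM in BPA male 2, which ranked next to highest for Itpr2, and 1943 CPM in control male 3, which ranked highest. The part of astrocyte RNA in the Itpr2 values was not tested. Of 10 other calcium store genes, 5 were lower and 5 higher in males with 0 called; the lowest p was that of the ryanodine receptor gene Ryr3, with -0.72 ± 0.25 (unadjusted p = 0.0117, limma-voom adjusted p = 0.496). Itpr3 had a log2 fold change of 0.22 ± 0.29 in males.

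Tcf7l2, the TCF/LEF factor that acts downstream of Wnt signalling and is induced as precursors begin to differentiate, was low in all 4 BPA males (ENSMUSG00000024985). In males the controls were at 88.3, 77.9, 90.9 and 77.4 CPM and BPA males at 66.1, 64.7, 58.4 and 65.1 CPM. The BPA males did not overlap the controls, and the nearest libraries were 66.1 and 77.4 CPM. The male log2 fold change was -0.39 ± 0.14 (95% interval -0.69 to -0.10) with an unadjusted p of 0.0124 and a limma-voom adjusted p of 0.496. Among females, controls were at 75.9, 95.4, 88.8 and 77.6 CPM and BPA females at 83.3, 109.6, 80.7 and 58.4 CPM. The female groups overlapped and the log2 fold change was -0.052 ± 0.14. Of 14 other TCF/LEF factors, beta-catenin partners and feedback targets, 13 were tested, 9 lower and 4 higher in males, with a median of -0.072 and 0 called. Tcf7l1, the TCF/LEF factor known as a repressor, had a log2 fold change of -0.25 ± 0.11 in males (unadjusted p = 0.0356, limma-voom adjusted p = 0.581) and -0.21 ± 0.10 in females. Tcf7 had a log2 fold change of -0.34 ± 0.25 and Znrf3, a ligase that removes Wnt receptors, 0.17 ± 0.14 in males. The promoter windows of Tcf7l2 are those printed above, and the Fyn window was the only one of the 9 with the TCF/LEF letters. The annotated gene Ppnr overlaps Tcf7l2 on the same strand, and Gm15720 and Gm44086 overlap Itpr2 in the same way. How the authors' counting treated these overlaps is not given in the sources used here.

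Ust, Neu4 and Enpp6 are enzymes, acting on carbohydrate chains or, for Enpp6, on choline lipids. Ust, the sulfotransferase that adds a 2-O-sulfate to uronic acids of chondroitin and dermatan sulfate, had the lowest male fold change of the 10 (ENSMUSG00000047712). Control males were at 252, 223, 253 and 246 CPM and BPA males at 190.0, 156, 159 and 196 CPM. The groups did not overlap, and the log2 fold change was -0.48 ± 0.15 (95% interval -0.80 to -0.16), or -28.3%, with an unadjusted p of 0.00565 and a limma-voom adjusted p of 0.44. Control females were at 211, 197, 256 and 258 CPM and BPA females at 224, 301, 228 and 161 CPM, which overlapped, with a log2 fold change of -0.042 ± 0.15. Of 10 other genes for sulfation or epimerization of chondroitin, dermatan or heparan sulfate, 9 were tested, 6 lower and 3 higher in males with a median of -0.13 and 0 called. Chst14, the dermatan 4-O-sulfotransferase, had a log2 fold change of -0.35 ± 0.14 (unadjusted p = 0.0218), Chst3, the chondroitin 6-O-sulfotransferase, -0.22 ± 0.093 (unadjusted p = 0.0346) and Hs2st1, the heparan sulfate relative of Ust, -0.17 ± 0.063 (unadjusted p = 0.0168). In females the same 3 had a log2 fold change of -0.053 ± 0.14, -0.10 ± 0.094 and -0.060 ± 0.064.

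Enpp6, a choline-specific phosphodiesterase, overlapped between the male groups through BPA male 4 (ENSMUSG00000038173). The male controls stood at 893, 937, 1023 and 1015 CPM and BPA males at 825, 784, 879 and 969.9 CPM. The log2 fold change was -0.16 ± 0.093 with an unadjusted p of 0.1 (limma-voom adjusted p = 0.722). Control females, at 954, 948, 1005 and 1002 CPM, had the smallest relative spread of any gene and group here, a coefficient of variation of 3.09%. BPA females were at 981, 1262, 996 and 890.4 CPM, on both sides of their controls, with a log2 fold change of 0.066 ± 0.095. Of the 5 tested relatives, 2 were lower and 3 higher in males; Enpp5 had a log2 fold change of 0.18 ± 0.073 (unadjusted p = 0.0262) and Enpp2, autotaxin, -0.0071 ± 0.13. Neu4, a sialidase, had a coefficient of variation of 31.5% among male controls (ENSMUSG00000034000). Those were at 125, 149, 224 and 119 CPM and the BPA males at 147, 119, 109 and 117 CPM. The groups overlapped, control male 3 stood above the rest, and the log2 fold change was -0.29 ± 0.24 (limma-voom adjusted p = 0.831), or -0.096 without that library. The female controls stood at 131, 169, 137 and 128 CPM and BPA females at 167, 222, 119 and 88.6 CPM, from the lowest to nearly the highest value of all 16 libraries, with a log2 fold change of -0.0035 ± 0.24. The other sialidase genes tested, Neu1 and Neu3, had a log2 fold change of -0.0083 ± 0.051 and 0.21 ± 0.21 in males.

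Bcas1, a cytoplasmic protein that marks oligodendrocytes at the start of myelination, had the lowest unadjusted p of the 10 in males (ENSMUSG00000013523). In males the controls were at 1141, 1038, 1207 and 1103 CPM and BPA males at 953, 789.6, 908 and 1016 CPM. The groups did not overlap, though BPA male 4 came near the lowest control. The log2 fold change was -0.29 ± 0.082 (95% interval -0.47 to -0.12), or -18.5%, with an unadjusted p of 0.00274 and a limma-voom adjusted p of 0.384. In females the controls were at 1049, 1074, 1110.5 and 1176 CPM and BPA females at 1151, 1251, 1138 and 1005 CPM, which overlapped, and the log2 fold change was 0.039 ± 0.084. Tmem163, a zinc transporter of intracellular vesicles and the plasma membrane, had a fold change below 0 in both sexes (ENSMUSG00000026347). Control males were at 500.0, 464, 548 and 459.6 CPM and BPA males at 437, 351, 425 and 433 CPM. These did not overlap, and the log2 fold change was -0.26 ± 0.11 (95% interval -0.49 to -0.035; limma-voom adjusted p = 0.55). Among females, controls were at 467, 547, 495 and 501 CPM and BPA females at 446, 544, 419 and 369 CPM. BPA females 1, 3 and 4 were below every female control and BPA female 2 near the highest, so the groups overlapped, with a log2 fold change of -0.19 ± 0.11 (unadjusted p = 0.0926). The sex difference of the BPA effects on Tmem163 was 0.069 ± 0.15, with a 95% interval of -0.25 to 0.39. Of the 50-base words in Tmem163 transcripts, 0.731% occur in another gene, the highest share among the 10.

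**Figure D3:**
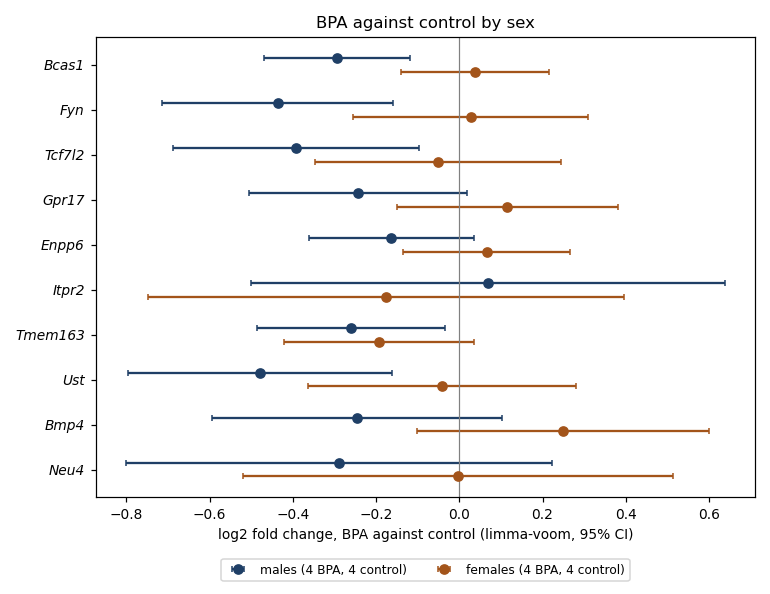
Log2 fold change of BPA against control for each gene, in males (dark blue) and females (brown), with 95% confidence intervals from limma-voom. In males the intervals of Bcas1, Fyn, Tcf7l2, Tmem163 and Ust lie below 0; in females all 10 intervals include 0.

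Over the 10 genes the BPA males formed a shifted group and the BPA females a spread one. Against the mean of the control males, the median deviation of the 10 genes was -0.23, -0.36, -0.39 and -0.17 log2 units in BPA males 1 to 4, with 9, 9, 10 and 8 genes below the mean. Control males had medians of 0.0059, -0.10, 0.16 and -0.062. BPA females had medians of 0.025, 0.39, -0.0072 and -0.39 against the control females, with 4, 1, 6 and 10 genes below. BPA female 2 held the highest value of all 16 libraries in 7 of the 10 genes, and BPA male 2 the lowest in 6. With deviations taken from each group's own mean, the SD of the library medians was 0.32 in BPA females. It was 0.11 in BPA males, 0.12 in control males and 0.081 in control females. The summed level of the 10 genes ran from 5406 to 6386 CPM in BPA males, from 6571 to 7996 CPM in control males and from 5782 to 9014 CPM in BPA females.

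**Figure D4:**
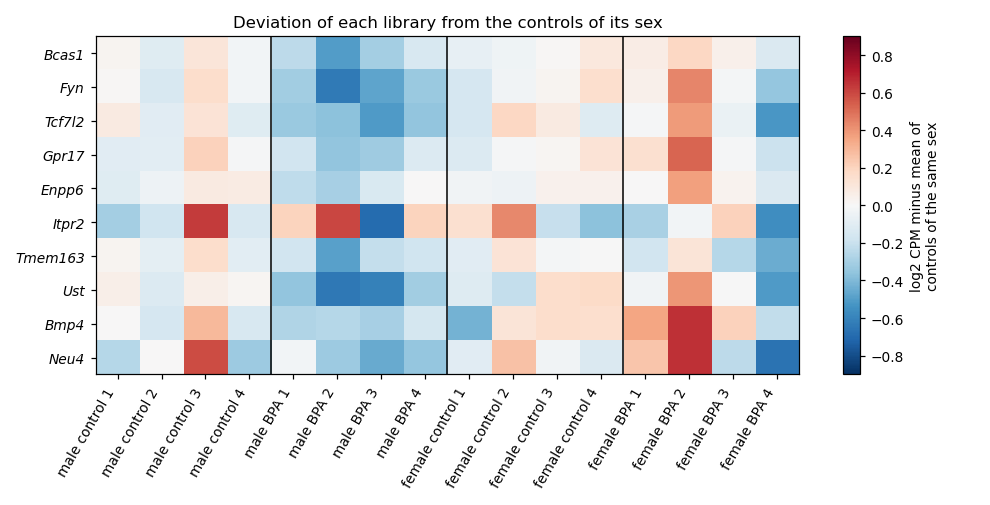
Log2 CPM of each gene (rows) in each library (columns) minus the mean of the controls of the same sex, in colour from blue (lower) to red (higher); black lines part the groups. BPA males are blue in most rows, BPA female 2 is red in 9 of 10 rows and BPA female 4 is blue in all 10.

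In females 5 of the 10 genes were below 0 and 5 above, with a median log2 fold change of 0.012 against 0.0019 over all genes, of which 49.4% were below 0. No gene was called in females by limma-voom (0% of all genes) or by limma-trend, none of the 10 had an unadjusted p under 0.05, and 744 of all genes did. Without BPA female 2, 1 of the 10 was lower at that level, with 708 of all 16555 genes there in either direction. Without BPA female 4, 1 was higher (755 of 16544 genes). With scaling to lineage factors, given further on, 4 were higher (770 of 16339 genes). In 0 of the 10 genes did every BPA female lie below every control female, which held for 2.06% of all genes. The female result depended on single libraries: without BPA female 2, 9 of the 10 were below 0, with a median of -0.14, and without BPA female 4, 2 of the 10, with a median of 0.14. Without both, 4 of the 10 were below 0 and the median was 0.019. Over both sexes 9 of the 10 were below 0, with a median of -0.14, and 5 had an unadjusted p under 0.05, against 4.46% of all genes lower at that level. Tmem163 had the lowest unadjusted p of these by limma-voom, 0.00875, with a log2 fold change of -0.23 ± 0.075 (adjusted p = 0.449). In order of p, Ust followed at -0.26 ± 0.11, Tcf7l2 at -0.22 ± 0.10, Fyn at -0.20 ± 0.093 and Bcas1 at -0.13 ± 0.059. This count of 5 was unstable: it was 3 or fewer when any single library other than control male 2, control female 1 or BPA female 2 was left out, and 1 without control male 3, control female 3, BPA male 2, BPA male 3 or BPA female 4. At that level over both sexes stood 1256 of all 16339 genes, in either direction. With single libraries left out this ran from 1028 of 16559 genes without control male 3 to 1426 of 16555 without BPA female 2. Among the 10 the count was 1 without BPA male 2 and BPA female 1 together (1293 of 16420 genes). It was 3 with median-of-ratios size factors (1238 of 16339) and 0 with scaling to the lineage factors Sox10, Olig1 and Olig2 (1878 of 16339). The median of -0.14 was -0.075 without control male 3, -0.059 without BPA female 4 and -0.026 with that scaling. None of the 10 was among the 0.0184% of genes called over both sexes.

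The difference of the BPA effects between the sexes, female minus male, was above 0 in 9 of the 10 genes, with a median of 0.34 against -0.015 over all genes. It had an unadjusted p under 0.05 in 3 genes, against 3.12% of all genes higher at that level. Bcas1 had a difference of 0.33 ± 0.12 by limma-voom, Fyn of 0.46 ± 0.19 and Bmp4 of 0.49 ± 0.23, each with an adjusted p of 0.999. With single libraries left out the Bmp4 difference ran from 0.35 to 0.67. The count of 3 was 1 without control female 1, with 555 of all 16491 genes at that level in either direction. It was 5 without control male 2 (782 of 16558 genes) and 7 without BPA female 4 (1019 of 16544 genes). Without BPA male 2 and BPA female 1 it was 1 (1229 of 16420 genes). It was 6 without BPA females 2 and 4 (655 of 16865 genes) or with lineage scaling (503 of 16339 genes). The median of 0.34 was 0.22 without BPA female 2. By limma-voom and by limma-trend no gene was called for this difference (0% of all genes), while 772 had an unadjusted p under 0.05. Between female and male controls the log2 differences of the 10 genes ran from -0.090 for Fyn to 0.12 for Itpr2 and a limma-voom adjusted p of 1 for each, against 0.0551% of genes called. The widest 95% interval of these was that of Itpr2, -0.46 to 0.69, and the narrowest that of Bcas1, -0.20 to 0.15.

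Within groups, 9 of the 10 genes varied together from library to library. After removing group means (n = 16 libraries), the 36 pairs without Itpr2 had Pearson r from 0.53 to 0.96 with a median of 0.80, highest for Fyn with Gpr17. Itpr2 correlated with the others at a median of 0.18, highest with Neu4 at 0.53. All pairs share the same libraries and scaling, so these are descriptions, and they lean on BPA females 2 and 4: without these libraries the 36 pairs had a median of 0.57, from -0.10 to 0.94. Outside the 10, the genes most like their mean profile over the 16 libraries were Pak4 (r = 0.967), Fbxo7 (0.953), Lrrn3 (0.952), Cdyl (0.949), Kif19a (0.948), Tns3 (0.939), Znrf1 (0.936) and Chadl (0.936). Kif19a and Tns3 are also on the list of other committed and newly formed markers. By list, the median r with that profile was 0.80 for 17 precursor genes, 0.74 for 20 other committed and newly formed markers, -0.21 for 22 myelinating genes, -0.29 for 15 astrocyte genes and -0.22 for 15 microglial genes.

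The neighbouring stages were read from lists of markers, of which 0 genes were called by limma-voom in either sex. Of 20 other committed and newly formed markers, 19 were lower in BPA males, with a median of -0.25, while 47.5% of all genes were below 0. At a limma-voom unadjusted p under 0.05, 10 of the 20 were lower, against 4.8% of all genes. For Mical3 the log2 fold change in males was -0.34 ± 0.093 (limma-voom adjusted p = 0.369), Kif19a -0.35 ± 0.10 (0.384), Tns3, a focal adhesion protein, -0.33 ± 0.10 (0.44) and Mycl -0.43 ± 0.15 (0.496). In females 14 of the 20 were lower, with a median of -0.11, and 2 of these had a limma-voom unadjusted p under 0.05. Of all 16339 genes, 744 stood at that level in females, in either direction. Over both sexes 20 of 20 were lower, with a median of -0.14. Of 17 precursor genes, 16 were lower in males (median -0.31) and 16 higher in females (median 0.20). In males 7 of the 17 were lower at a limma-voom unadjusted p under 0.05, against 4.8% of all genes. In females 2 of the 17 were higher, with the same 744 of all genes at that level in either direction. Summed precursor levels did not overlap in males, at 2219 to 2828 CPM with BPA and 3028 to 3442 CPM in controls. BPA female 2 had a summed precursor level of 4376 CPM, while BPA females 1, 3 and 4 stood at 3253, 2974 and 2304 CPM against 2530 to 3112 CPM in control females. Among controls, 16 of the 17 were lower in females than in males (median -0.21). The matrix protein gene Tnr had a log2 fold change of -0.47 ± 0.16 in males and 0.10 ± 0.16 in females, and Pcdh15 -0.33 ± 0.11 and 0.28 ± 0.11. Of 22 myelinating genes 19 were higher in males, with a median of 0.082, and 8 in females, with a median of -0.032. Klk6, a protease of mature oligodendrocytes, had a log2 fold change of 0.79 ± 0.29 in males (unadjusted p = 0.0147, limma-voom adjusted p = 0.499), and the myelin glycoprotein gene Mog 0.20 ± 0.11. The lineage factor genes Sox10, Olig1 and Olig2, which all stages express, had a log2 fold change of -0.051 ± 0.094, -0.082 ± 0.082 and -0.17 ± 0.10 in males and 0.0088 ± 0.095, -0.17 ± 0.082 and -0.18 ± 0.10 in females.

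**Figure D5:**
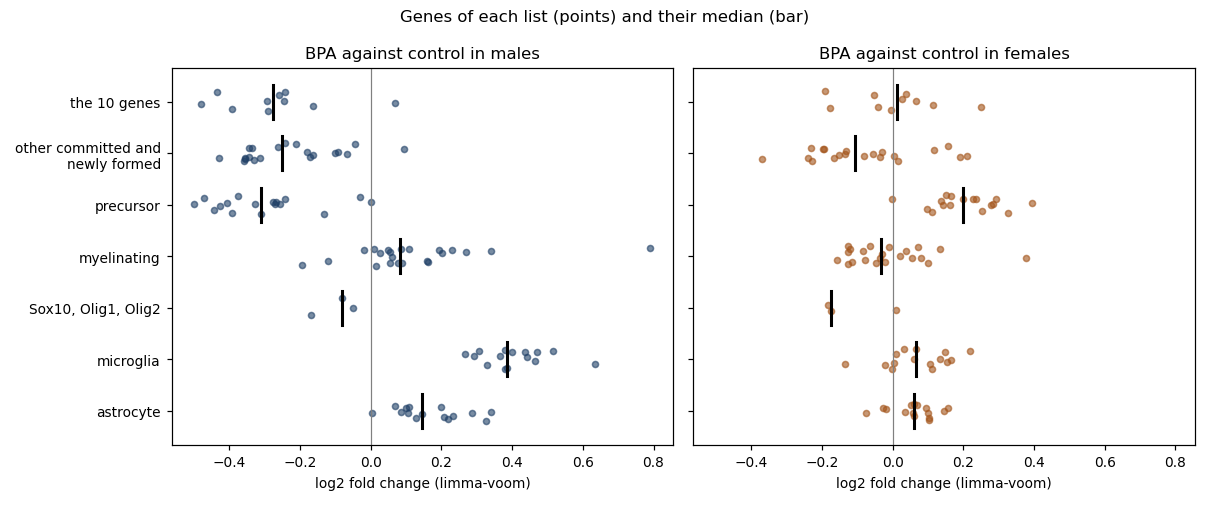
Log2 fold change of BPA against control (limma-voom) for the genes of each list, males on the left and females on the right; points are genes and black bars medians. In males the bars of the 10 genes, of the other committed and newly formed markers and of the precursor list lie at -0.28, -0.25 and -0.31; in females they lie at 0.012, -0.11 and 0.20.

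None of the markers of other cell types was called by limma-voom in males, the summed levels of each list overlapped between BPA and control males, and the part of these cells in the values of the 10 genes was not tested. All 15 microglial markers had fitted changes above 0 in males, with a median of 0.39, and their summed level ran from 792 to 1555 CPM against 656 to 1745 CPM in control males. All 15 astrocyte markers were above 0 as well (median 0.14), with sums from 1507 to 10153 CPM against 1943 to 3617 CPM. BPA male 2 alone held the 10153 CPM: the other BPA males stood at 3096, 1733 and 1507 CPM, and the median sum was lower in BPA males, 2414 CPM against 2787 CPM. Of 11 tested mural and fibroblast markers 10 were higher in males (median 0.64), with sums from 47.9 to 139 CPM, the highest again in BPA male 2, against 28.7 to 54.9 CPM, and of 10 ependymal and choroid plexus markers 8 were (median 0.60), with sums from 228 to 557 CPM against 125 to 336 CPM. Of 13 neuronal markers 11 were lower in males (median -0.10), with sums from 179.5 to 247 CPM against 216 to 249 CPM, and 12 endothelial markers were 6 lower and 6 higher. Slc17a6, a neuronal gene, was the only marker of these lists at 0 in any library. Genes of dissociation and immediate early response were higher in 17 of 20 cases in males (median 0.12) and in 20 of 20 in females (median 0.42). BPA female 1 had the highest microglial sum of all libraries, 2769 CPM, and the highest sum of immediate early genes. Without BPA male 2 and BPA female 1, 10 of the 10 genes were below 0 in males, 7 had BPA males all below control males, against 5.99% of all genes with these fewer libraries, and the male fold changes of Fyn, Ust and Tcf7l2 were -0.36 ± 0.14, -0.42 ± 0.17 and -0.39 ± 0.16.

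Scaling each library to Sox10, Olig1 and Olig2 in place of all genes gave levels relative to these 3 genes of the oligodendrocyte lineage. In the main fit over both sexes all 3 were themselves below 0 with BPA (median log2 fold change -0.13). By limma-voom 2 of the 3 had an unadjusted p under 0.05, against 4.46% of all genes lower at that level. The scaling moved the median of all genes to 0.11 in each sex. Relative to that median, the median of the 10 genes was -0.28 in males and 0.024 in females. On that scale 9 of the 10 genes were still below 0 in males, with a median of -0.17, and every BPA male was below every control male in 4 genes, not 7, against 0.753% of all genes. The 4 genes with an unadjusted p under 0.05 there, against 5 before, were Fyn at -0.34 ± 0.10, Ust at -0.38 ± 0.12, Tcf7l2 at -0.29 ± 0.13 and Bcas1 at -0.19 ± 0.06. Of all 16339 genes, 1287 stood at that level in males, in either direction. Tmem163 moved from -0.26 to -0.16 (unadjusted p = 0.0684), Gpr17 from -0.24 to -0.14, Bmp4 from -0.25 to -0.15, Neu4 from -0.29 to -0.18, Enpp6 from -0.16 to -0.062 and Itpr2 from 0.069 to 0.18. In females 770 of all 16339 genes had an unadjusted p under 0.05 on that scale, in either direction. Of the 10, 2 were below 0 and 8 above, and 4 were higher at that level, against 0 before. These were Bmp4 at 0.37 ± 0.14 (unadjusted p = 0.021), Bcas1 at 0.15 ± 0.062 (unadjusted p = 0.0233), Enpp6 at 0.18 ± 0.080 (unadjusted p = 0.0367) and Gpr17 at 0.23 ± 0.10 (unadjusted p = 0.0394).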

How the data were processed

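Poly(A) RNA was sequenced from O4-sorted brain cells with stranded libraries, per the labels' protocols. Tools named by the submitters' processing notes are DESeq2 1.16.1, HTSeq 0.6.1p1, STAR 2.5.3a and bcl2fastq 2.20.0.422, with build mm39; the roles, annotation and filters are not given in the sources used here. The deposited table holds whole-number raw counts per gene and library and, per the file headers, normalized values divided by the median transcript length in kilobases, used here only for levels between genes. The 16 columns of normalized values without length were not used. Symbols came from GENCODE M21 for 31717 of 32207 genes; Tmem2 was looked up as Cemip2. The design text gives 250 µg/mL BPA in the water, and how that relates to the labelled exposure was not settled.

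The layout of the table hindered an automatic check of its unit, so edgeR, planned as the main test, and DESeq2 as its alternative were not run. limma-voom took their place (limma 3.58.1, R 4.3.3): all 16 libraries, 1 coefficient per group, TMM scaling, robust empirical Bayes, two-sided tests, and Benjamini-Hochberg adjustment over 16339 genes at 0.05. Genes needed 10 counts in enough libraries and 15 in total. CPM is a gene's count over the TMM-scaled library total. A count of 0 allows up to 3 counts, from 0.0705 to 0.127 CPM, by counting error alone. The fit was tested on simulated data. Python 3.11.15 wrote the descriptions.

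The 10 genes and the marker and family lists were chosen with earlier results of these data known. From each list up to 4 genes with the smallest p per sex are eligible for naming, beside the 10 genes, the lineage references and the 8 genes most like the 10 in profile. Chi-square per gene between libraries of a group was 15.9 to 32.7 in 21 of 24 pairs and 87.8 to 132 in the 3 with BPA male 2, so no library was a copy of another. The labels give no batch.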

Additional observations from a re-analysis of the deposited data

Results flagged for a closer look

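In groups of 4 libraries, 3 of 40 combinations of gene and group had a library far from the others, where chance gives about 1 in 20. Itpr2 stood at 320.4 CPM in control male 3, with a gap to the next library of 0.867 of the group's range. Tmem163 stood at 351 CPM in BPA male 2, the lowest of its group, with a gap of 0.858 of the range. Bmp4 stood at 67.9 CPM in control female 1, also the lowest, with a gap of 0.916 of the range.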

How the results depend on the processing

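None of the 10 genes was called under any of 960 combinations of gene, comparison and alternative (lowest limma-voom or limma-trend adjusted p 0.136), and 912 of those values kept their direction. The median of the 10 in males stayed between -0.30 and -0.17. DESeq2 and edgeR were not run; limma-trend and leaving out BPA females 2 and 4 were chosen after seeing the data. Genes called in males numbered 1, and 2 with limma-trend, lineage scaling or no filter, 0 with the stricter filter, without BPA male 2 and BPA female 1 or without BPA females 2 and 4, and from 0 to 3 with single libraries left out. In females 2 were called with no filter, against 0. Over both sexes 3 were called, 0 with the stricter filter or either pair left out, and from 0 to 5 with single libraries left out. For the sex difference this range was 0 to 3, against 0, and for control females against males 4 to 9, against 9. Lineage scaling left 4 genes with no overlap in males, not 7. Libraries with the same replicate number in different groups had a median r of 0.022 over 24 pairs, from -0.20 to 0.21, with 7 over 0.1. The 72 pairs with different numbers had a median of -0.017. With group means of only 4 libraries removed, these values cannot decide whether the numbers pair libraries. With the replicate block 0 genes were called over both sexes and 1 in males. There, 2 of the 10 genes, not 5, had a limma-voom unadjusted p under 0.05 over both sexes. Of all 16339 genes, 1235 did, in either direction. Direction changed in the following, where the cause was not tested. Neu4 in females was 0.0019 with limma-trend, 0.0038 with median-of-ratios size factors, 0.033 with no filter, 0.12 with lineage scaling and 0.016 without BPA females 2 and 4. Lineage scaling gave Tcf7l2 0.068 and Ust 0.080 in females, and Gpr17 0.045, Enpp6 0.060 and Itpr2 0.067 over both sexes. Without BPA male 2 and BPA female 1, Itpr2 in males was -0.090, Bmp4 over both sexes -0.0019 and the Tmem163 sex difference -0.0053; without BPA females 2 and 4, Itpr2 over both sexes was 0.014. With single libraries left out, Itpr2 in males ran from -0.100 to 0.33. In females Bcas1 ran from -0.00024 to 0.11, Fyn from -0.10 to 0.17, Tcf7l2 from -0.19 to 0.11, Gpr17 from -0.012 to 0.23, Enpp6 from -0.026 to 0.15, Ust from -0.18 to 0.13 and Neu4 from -0.21 to 0.24, each lowest without BPA female 2 and highest without BPA female 4. Over both sexes Itpr2 ran from -0.14 to 0.083 and Bmp4 from -0.062 to 0.087, and the Tmem163 sex difference from -0.024 to 0.17.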

Other observations

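The 8 genes whose library-to-library profile, with group means removed, was most like that of the 10 genes were lower in BPA males, none of them past the threshold. Their log2 fold changes in males were -0.35 for Kif19a, -0.33 for Tns3, -0.26 for Chadl, -0.25 for Lrrn3, -0.22 for Fbxo7, -0.21 for Pak4, -0.18 for Cdyl and -0.17 for Znrf1, with limma-voom adjusted p from 0.384 to 0.808. In females the same 8 genes ran from -0.13 for Kif19a to 0.084 for Lrrn3.

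Among immediate early genes in females, which respond to stimulation and to cell dissociation, the log2 fold change was 0.85 ± 0.37 for Egr2, 0.70 ± 0.37 for Atf3 and 0.55 ± 0.24 for Klf4 (SE, each with a limma-voom adjusted p of 0.999). The summed level of the 20 genes of this list was highest in BPA female 1, at 3122 CPM, and the other BPA females stood at 1828, 1885 and 2608 CPM against 1608 to 2153 CPM in control females.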
